A study of Mus musculus with 30 samples.

Results

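Bacteroides (g__Bacteroides in the taxon names), Parabacteroides (g__Parabacteroides) and the remaining Tannerellaceae are the members of the order Bacteroidales described here in mouse stool. The members were all sequence variants whose taxon name holds the family Bacteroidaceae or Tannerellaceae and that had reads in any library. These were 28 of 949 bacterial variants, 17 of them Bacteroides, the single genus named within Bacteroidaceae, and 11 Tannerellaceae. Another 124 listed variants of the families had 0 reads in these libraries. Stool DNA of female Gpr15l-/- (KO) and wild-type (WT) mice was profiled by amplicon sequencing of 16S rRNA genes (V4), which every bacterium carries. Gpr15l encodes a peptide made by epithelia that binds the lymphocyte receptor GPR15. Each of the 6 groups held 5 libraries: KO (1 to 5) and WT (6 to 10) at weaning at about 4 weeks of age, KO (11 to 15) and WT (16 to 20) after 4 to 5 weeks in cages mixing the genotypes, and KO (21 to 25) and WT (26 to 30) after 6 further weeks apart. The labels name no other allele, treatment or strain, and no cage, litter or animal that would link the times. Cages held 2 to 7 mice, so libraries of one group may share a cage, and p-values measure the spread between these samples.

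Bacteroides and Parabacteroides are Gram-negative, obligately anaerobic rods of the large intestine. They break down plant polysaccharides and host glycans through sets of outer-membrane binding proteins and hydrolases, and release acetate, propionate and succinate. Bacteroides acidifaciens and Bacteroides sartorii are names first given to isolates from mouse caecum, whereas Bacteroides vulgatus and Parabacteroides distasonis are common in the human gut as well. Mice eat faeces, and cage mates exchange gut bacteria by that route.

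The table gives a name for each variant but no bases. Variants are therefore called by their row numbers, and no sequence is shown. In the 20 weaning and co-housing libraries 13 member variants had reads, in the 10 re-separation libraries 15 others did, and 0 of all variants had reads in both sets. Variants are therefore compared within a set, and genera over all 6 groups, where re-separation and library set cannot be told apart. In the first set, rows 44 and 45 are named Bacteroides sartorii, rows 47 and 48 Bacteroides acidifaciens and row 43 Bacteroides vulgatus. Rows 46, 49 and 50 are Bacteroides without a species, row 131 is Parabacteroides johnsonii, rows 52, 53 and 133 are Parabacteroides without a species, and row 132 is Tannerellaceae without a genus. In the second set the matching names fall on rows 653 and 654 (sartorii), 659 (acidifaciens), 651 (vulgatus), 657, 658, 660, 661 and 662 (no species), 798 (johnsonii), 800 (Parabacteroides without a species) and 799 (no genus). Rows 663, 665 and 666 are named Parabacteroides distasonis, a name with 0 reads in the first set.

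Libraries held 10560 to 73776 reads. Mitochondrial reads, left out of all shares, were 0% to 0.829%, chloroplast reads were 0, and the orders Bacteroidales, Lachnospirales and Oscillospirales, typical of stool, held 45.4% to 88.0%. Libraries 1, 5 and 19 lay farthest from the others of their group, at mean Bray-Curtis distances over genera of 0.476, 0.499 and 0.464. Library 11 was the farthest of its group at 0.378, and the other 26 libraries lay at 0.189 to 0.441. Among those 26, libraries 3 (0.407) and 4 (0.441) lay farther out than library 11. Libraries 6, 21 and 27 were the farthest of their groups too. No single cut-off on these distances therefore picks out libraries 1, 5, 11 and 19. Member calls that change without libraries 1, 5, 11 and 19 are given both ways. A share of reads does not separate fewer bacteria of one kind from more of the others. Growing older and sharing a cage cannot be told apart in the first step of the design.

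Together the members held 0.546% to 25.0% of bacterial reads, with a mean of 5.27% over 30 libraries. Bacteroides made up most of this, with a mean of 4.35% and reads in 30 of 30 libraries. Parabacteroides had a mean of 0.747% and reads in 29 libraries. Tannerellaceae without a genus had a mean of 0.172% and a median of 0.0175%, and reads in 19 libraries.

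At weaning Bacteroides held 16.5%, 9.11%, 9.05%, 5.95% and 2.02% of reads in KO libraries 1 to 5, and 3.50%, 5.48%, 6.54%, 15.0% and 4.92% in WT libraries 6 to 10. The groups overlapped over most of their range, with the highest library of each genotype near the other. After co-housing the KO libraries 11 to 15 held 2.97%, 0.578%, 1.02%, 1.01% and 0.930%, and the WT libraries 16 to 20 held 1.05%, 1.61%, 1.84%, 6.81% and 0.322%. Library 11 in KO and library 19 in WT stood well above the other 4 of their group. After re-separation the values lay closer together, at 2.84%, 4.58%, 2.63%, 4.36% and 3.18% in KO libraries 21 to 25 and 2.29%, 4.70%, 4.51%, 1.89% and 3.27% in WT libraries 26 to 30. The KO means at the 3 times in turn were 8.51% ± 5.30, 1.30% ± 0.949 and 3.52% ± 0.894, and the WT means were 7.10% ± 4.57, 2.33% ± 2.57 and 3.33% ± 1.26 (SD, n = 5). Bacteroides was the genus of median rank 4 by share in both genotypes at weaning, of rank 15 in KO and 16 in WT after co-housing, and of rank 6 and 9 after re-separation.

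Parabacteroides held 4.16%, 0.487%, 0.911%, 0.737% and 0.305% in the KO weaning libraries and 0.672%, 0%, 2.29%, 0.0494% and 0.371% in the WT weaning libraries. One library per genotype, 1 in KO and 8 in WT, stood above the rest. After co-housing its share was 0.0942%, 0.149%, 0.119%, 0.0580% and 0.0227% in KO and 0.0408%, 0.286%, 0.163%, 0.761% and 0.223% in WT, so 4 WT libraries of 5 lay above every KO library. After re-separation it was 1.25%, 1.06%, 0.721%, 0.404% and 0.939% in KO and 0.537%, 2.67%, 1.02%, 0.600% and 1.31% in WT. The KO means at the 3 times in turn were 1.32% ± 1.61, 0.0886% ± 0.0498 and 0.874% ± 0.326, and the WT means were 0.676% ± 0.941, 0.295% ± 0.276 and 1.23% ± 0.865 (SD, n = 5).

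Tannerellaceae without a genus were rare in all but library 1. They held 4.40%, 0.0851%, 0.0940%, 0.0936% and 0% in the KO weaning libraries and 0.0340%, 0%, 0.0649%, 0.0395% and 0% in the WT weaning libraries. After co-housing reads were found in KO libraries 11 (0.0353%) and 13 (0.0146%) and in WT library 19 (0.0393%), and the other 7 libraries had 0 reads. After re-separation 5 of 5 KO libraries held 0.0173% to 0.0760%, and 4 of 5 WT libraries held 0.0101% to 0.0349%.

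**Figure D1:**
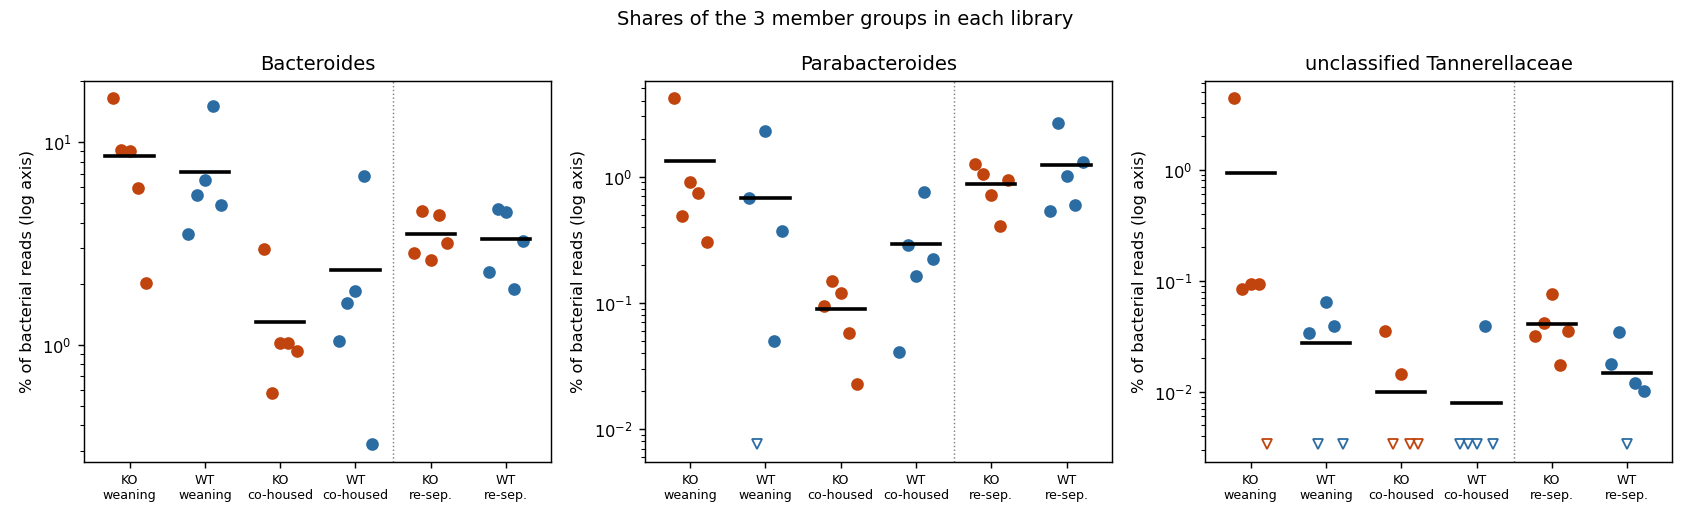
Share of bacterial reads (%, log axis) of the 3 member groups in each library (points) of KO (orange) and WT (blue) groups; black lines are group means, open triangles at the foot of a panel are libraries with 0 reads, and the dotted line parts the re-separation libraries, which share no variant with the others. Bacteroides lies at 2.02% to 16.5% at weaning and at 0.322% to 6.81% after co-housing, and library 1 carries the mean of Tannerellaceae without a genus.

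The genotypes were compared with edgeR's quasi-likelihood test at each time, over 72 genera with at least 10 reads in at least 3 libraries, with Benjamini-Hochberg adjustment and a threshold of 0.05. At weaning, where 23.6% of all genera tested were called (17 of 72), 1 of the 3 member groups was called. Tannerellaceae without a genus were higher in KO by a log2 fold change of 4.02 ± 1.50 (SE; adjusted p = 0.0409), and 4 of 5 KO libraries lay above every WT library. That call rested on library 1, since without it the KO mean was 0.0682% against 0.0277% in WT and the log2 fold change 0.69 (adjusted p = 0.807). Without any one of WT libraries 6 to 10 the log2 fold change stayed at 3.70 to 4.47, with adjusted p values of 0.0561 to 0.0869. Bacteroides had a log2 fold change of -0.73 ± 0.70 (adjusted p = 0.465), of opposite sign to the difference in mean share, and Parabacteroides one of 0.24 ± 0.90 (adjusted p = 0.939).

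After co-housing 1.39% of genera were called between the genotypes (1 of 72) and 0 of the 3 member groups were. At an unadjusted p under 0.05 there were 10 of 72 genera, among them 1 member group. That was Parabacteroides, with a log2 fold change of -1.93 ± 0.95 in KO against WT (adjusted p = 0.328). After re-separation 0% of genera were called (0 of 72) and 0 members were. At an unadjusted p under 0.05 there were 5 of 72 genera and 0 members. The log2 fold changes were 0.31 ± 0.69 for Bacteroides, -0.26 ± 0.90 for Parabacteroides and 1.55 ± 1.36 for Tannerellaceae without a genus. DESeq2 also called 0 members at both of these times, with 1 of 72 genera called after co-housing and 0 of 72 after re-separation. It gave Tannerellaceae without a genus no adjusted p in any comparison, so its member counts cover the other 2 groups.

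Exact two-sided permutation tests of the mean shares, 5 against 5 libraries over all orderings, were run on values scaled to each library's bacterial reads. On this scale the mean of Bacteroides at weaning was 1.42 percentage points above WT in KO (exact permutation p = 0.619), whereas its fitted log2 fold change was -0.73. Over the 9 comparisons (3 member groups at 3 times) the lowest p was 0.0397, for Tannerellaceae without a genus after re-separation (0.0404% ± 0.0218 in KO and 0.0149% ± 0.0128 in WT), and its adjusted p was 0.286. As shares of Bacteroidales reads, the lowest adjusted p of the same exact permutation tests was 0.357. In both families of tests 0 of 9 differences passed the threshold after adjustment.

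In KO mice all 3 member groups fell from weaning to co-housing, a step in which 31.9% of genera were called (23 of 72) and the median log2 fold change over all genera was 0.74. Bacteroides fell by 2.85 ± 0.74 on the log2 scale (SE; adjusted p = 0.00236), and 4 of 5 co-housed libraries lay below every weaning library. Parabacteroides fell by 3.90 ± 1.02 (adjusted p = 0.00236), with the highest co-housed library at 0.149% and the lowest weaning library at 0.305%, so the groups did not overlap. Tannerellaceae without a genus fell by 6.35 ± 1.68 (adjusted p = 0.00246), a call that was lost without library 1, where the log2 fold change was -3.02. DESeq2 called the 2 groups to which it gave an adjusted p, and 17 of 72 genera in all.

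In WT mice 29.2% of genera were called over the same step (21 of 72), and 1 of the 3 member groups was. Bacteroides fell by 2.41 ± 0.73 (adjusted p = 0.0124), the groups overlapping through library 19 at 6.81%. The call was lost without library 9, and without library 19 the log2 fold change was -3.76. Parabacteroides had a log2 fold change of -1.74 ± 0.93 (adjusted p = 0.127) and Tannerellaceae without a genus one of -2.50 ± 1.50 (adjusted p = 0.185). Without library 19 all 3 groups were called in WT too, and the count over all genera in that fit is not given here. The same held with libraries 1, 5, 11 and 19 left out, where 35 of 71 genera were called in all. In both fits the remaining WT co-housed libraries had 0 reads of Tannerellaceae without a genus. Its fitted log2 fold changes there, -7.11 and -7.17, are therefore not measured folds. The difference between the genotypes in this step was tested as an interaction, for which 4.17% of genera were called (3 of 72) and 0 members, with adjusted p values of 0.936, 0.315 and 0.291 for Bacteroides, Parabacteroides and Tannerellaceae without a genus. At an unadjusted p under 0.05 there were 0 members as well and 16 of 72 genera. DESeq2 called 0 members and 8 of 72 genera in all.

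The order Bacteroidales as a whole also stood lower after co-housing, at 61.1% ± 18.8 and 28.0% ± 13.3 in KO and 76.3% ± 6.08 and 36.9% ± 16.7 in WT (SD, n = 5). Within the order, Bacteroides held 13.7% ± 8.26 of Bacteroidales reads at weaning and 4.56% ± 1.68 after co-housing in KO, and 9.31% ± 5.72 and 5.21% ± 3.32 in WT. Of the 8 other Bacteroidales genera tested, 2 fell and 1 rose in KO. Unnamed Muribaculaceae, glycan degraders of the mouse gut, fell by 1.95 ± 0.60 and Muribaculum by 3.80 ± 0.90, while Odoribacter, which forms short-chain fatty acids, rose with a log2 fold change of 2.17 ± 0.79. In WT 2 of 8 fell and 0 rose, with unnamed Muribaculaceae at -2.04 ± 0.60 and Prevotellaceae UCG-001 at -1.82 ± 0.54 (adjusted p = 0.0115 for both). The median log2 fold change of the 8 other genera was -0.84 in KO and -1.66 in WT.

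From co-housing to re-separation 19.4% of genera were called in KO (14 of 72), 2 of the 3 member groups among them. Parabacteroides rose with a log2 fold change of 3.79 ± 1.01 (adjusted p = 0.00957), and every re-separation library lay above every co-housed one. This call held with each library left out in turn and under each other scaling and tool. None of these settings parts re-separation from library set. Parabacteroides distasonis, a name with 0 reads in the first set, made up 0.434% of the KO re-separation mean of 0.874%. Bacteroides rose with a log2 fold change of 1.99 ± 0.72 (adjusted p = 0.0433), with library 11 inside the range of the later libraries. Without any one of libraries 12, 13, 14, 15, 21, 22 and 24 this change stayed at 1.79 to 2.01 but missed the threshold (adjusted p = 0.0688 to 0.106). It was 2.07 with median-of-ratios scaling (adjusted p = 0.0539) and 1.43 with library-size scaling (adjusted p = 0.100). Tannerellaceae without a genus had a log2 fold change of 2.33 ± 1.43 (adjusted p = 0.242). Of the 8 other Bacteroidales genera, 3 rose and 0 fell. These were unnamed Muribaculaceae at 2.59 ± 0.62, Muribaculum at 2.75 ± 0.86 and the Rikenellaceae RC9 gut group at 3.36 ± 0.97.

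In WT 1.39% of genera were called over this step (1 of 72) and 0 members were. DESeq2 called 0 members and 3 of 72 genera in all. At an unadjusted p under 0.05 there were 9 of 72 genera, among them 1 member group. Parabacteroides had a log2 fold change of 2.12 ± 0.94 (adjusted p = 0.270), Bacteroides one of 0.51 ± 0.70 and Tannerellaceae without a genus one of 0.95 ± 1.45. With libraries 1, 5, 11 and 19 left out, all 3 groups were called in WT, and 11 of 71 genera were called in all. There the co-housed WT libraries had 0 reads of Tannerellaceae without a genus, so its fitted change is not a measured fold. Without library 19 alone 1 group was called, and the count over all genera in that fit is not given here. The interaction of genotype with this step called 0% of genera (0 of 72) and 0 members. Its edgeR adjusted p values were 0.896 for Bacteroides and 0.905 for Parabacteroides. At an unadjusted p under 0.05 there were 5 of 72 genera and 0 members, and DESeq2 called 1 of 72 genera and 0 members. Both steps share the co-housed libraries, so a low co-housed value enters both.

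**Figure D2:**
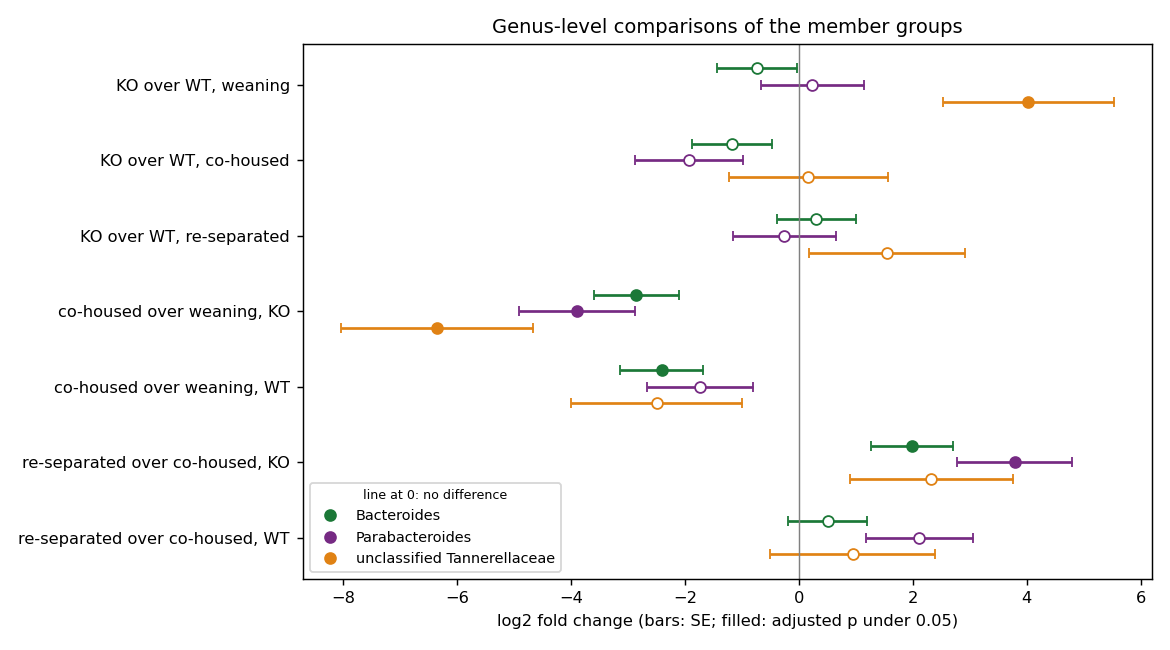
Log2 fold changes (x axis) of the 3 member groups in 7 comparisons (y axis), with standard errors as bars; filled points had an adjusted p under 0.05 in edgeR's quasi-likelihood test. The co-housed over weaning values all lie left of 0 and the re-separated over co-housed values all lie right of 0, while 1 of the 9 values between genotypes is filled.

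Below the genus, the libraries differed in which variant carried Bacteroides. The leading variant held 33.5% to 78.0% of the Bacteroides reads of a library (median 46.8%), and 7 variants took that place in the 30 libraries. Row 47 led in 3 KO weaning libraries, 1 WT weaning library and 2 co-housed libraries of each genotype. Row 48 led in 1 WT weaning library and 2 co-housed libraries of each genotype. Row 49, without a species name, led in 1 KO and 3 WT weaning libraries and in 1 co-housed library of each genotype, and row 45 led in library 1. After re-separation row 659 led in 3 KO and 2 WT libraries, row 658 in 2 of each, and row 654 in library 30.

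**Figure D3:**
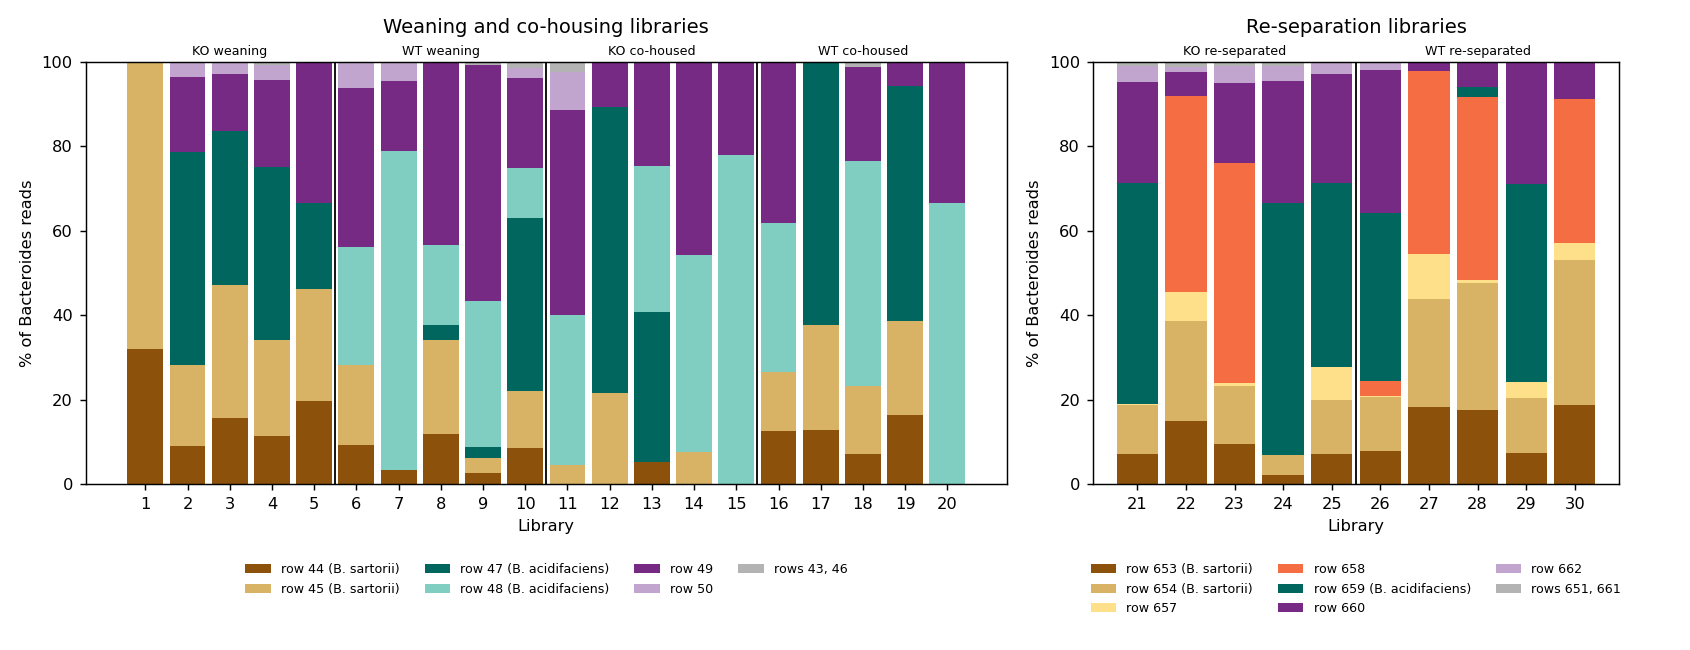
Makeup of the Bacteroides reads of each library (stacked bars, % of Bacteroides reads) by variant, in the weaning and co-housing libraries (left) and the re-separation libraries (right), whose variants are separate rows of the table; colours mark species names, and those of rows without a species name imply no match between the panels. Row 48 (light green) has 0 reads in libraries 1 to 5 and reads in libraries 6 to 10, and rows 658 and 659 replace each other among libraries 21 to 30.

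The member variant called between the genotypes was row 48, named Bacteroides acidifaciens. At weaning it had 0 reads in 5 of 5 KO libraries and held 0.979%, 4.15%, 1.24%, 5.20% and 0.580% of reads in WT libraries 6 to 10. The groups did not overlap. Against a floor of 3 counts per library the WT mean of 2.43% ± 2.10 (SD, n = 5) was at least 155-fold higher, or at least 111-fold without library 9 (edgeR adjusted p = 0.000493). Of the 292 variants tested in this set 20.9% were called at weaning (61), and row 48 was the 1 called among 9 member variants that passed the filter on low counts. With libraries 1, 5, 11 and 19 left out 15 of 280 variants were called, and row 48 was again the 1 member. The call held in all 17 alternative settings. In the setting with the compared groups alone row 48 passed the filter only through WT libraries, so a difference was fixed in advance there.

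After co-housing row 48 was found in both genotypes. It held 1.06%, 0%, 0.350%, 0.473% and 0.726% in KO libraries 11 to 15 and 0.370%, 0%, 0.980%, 0% and 0.215% in WT libraries 16 to 20, and the groups overlapped. In KO it rose from 0 of 5 to 4 of 5 libraries, to a mean of 0.522% ± 0.399, at least 33.3-fold above the weaning floor or at least 24.7-fold without library 11 (adjusted p = 0.00208). In WT its mean stood at 0.313% ± 0.404 after co-housing, with reads in 3 of 5 libraries (log2 fold change -3.32 ± 1.52, adjusted p = 0.118). The interaction of genotype with this step was called for row 48 (adjusted p = 0.00126), and its fitted size of 13.52 ± 2.57 on the log2 scale depends on the prior count and is no bound, because the KO weaning libraries were at 0. For that interaction 6.16% of variants were called (18 of 292), and row 48 was the 1 member among them. With libraries 1, 5, 11 and 19 left out 8 of 280 variants were called, and row 48 was again the 1 member.

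Row 47, the other Bacteroides acidifaciens variant, was seldom found with row 48. At weaning it held 0%, 4.60%, 3.30%, 2.44% and 0.410% in KO and 0%, 0%, 0.235%, 0.400% and 2.02% in WT, overlapping (log2 fold change 1.59 ± 2.26, adjusted p = 0.740). After co-housing it was found in KO libraries 12 (0.392%) and 13 (0.362%) and in WT libraries 17 (1.01%) and 19 (3.80%). Over the 20 libraries both variants were found in 4 (libraries 8, 9, 10 and 13), row 47 alone in 7, row 48 alone in 8, and neither in library 1. The libraries with row 47 alone were 2 to 5, 12, 17 and 19, and those with row 48 alone were 6, 7, 11, 14, 15, 16, 18 and 20. Summed, the species name held 2.15% ± 1.94 and then 0.673% ± 0.261 in KO, and 2.96% ± 1.92 and then 1.27% ± 1.45 in WT, and the genotypes overlapped at both times.

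The variants named Bacteroides sartorii behaved differently, appearing as a pair. Rows 44 and 45 were both found in 13 of 20 libraries, with 0.455 to 0.925 reads of row 44 per read of row 45 (median 0.518). The 5 libraries with one of them alone held 16 to 34 reads of it, and 2 libraries had neither. The re-separation rows 653 and 654 of the same name were both found in 10 of 10 libraries, with a ratio of 0.473 to 0.711 (median 0.595).

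Row 44 held 5.26%, 0.831%, 1.43%, 0.679% and 0.400% in the KO weaning libraries and was found in library 13 alone (0.0535%) after co-housing in KO. Its log2 fold change was -6.31 ± 1.83 (adjusted p = 0.0161). Row 45 held 11.2%, 1.73%, 2.84%, 1.35% and 0.534% at weaning in KO and 0.134%, 0.124%, 0%, 0.0773% and 0% after co-housing, a log2 fold change of -5.54 ± 1.69 (adjusted p = 0.0192). For both rows the weaning and co-housed KO libraries did not overlap. Without library 1 row 45 had a log2 fold change of -4.70 (adjusted p = 0.0652). With libraries 1, 5, 11 and 19 left out the changes stayed about as large, at -5.54 for row 44 and -5.63 for row 45, but were no longer called (adjusted p = 0.0632 and 0.0658). In WT the means at weaning and then after co-housing were 0.423% ± 0.223 and 0.318% ± 0.452 for row 44 and 0.661% ± 0.520 and 0.471% ± 0.604 for row 45 (adjusted p = 0.734 and 0.670).

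After co-housing rows 44 and 45 had log2 fold changes of -4.33 ± 1.67 and -3.08 ± 1.51 in KO against WT (adjusted p = 0.139 and 0.333). At that time 1.03% of variants were called between the genotypes (3 of 292) and 0 of 9 members. DESeq2 called 0 members and 6 of 292 variants in all. At an unadjusted p under 0.05 there were 3 members and 41 of 292 variants in all. Beside rows 44 and 45, the third of these members was row 50, which was found in library 11 alone among the co-housed libraries. The genotype difference in the step from weaning had an adjusted p of 0.121 for row 44 and 0.143 for row 45.

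**Figure D4:**
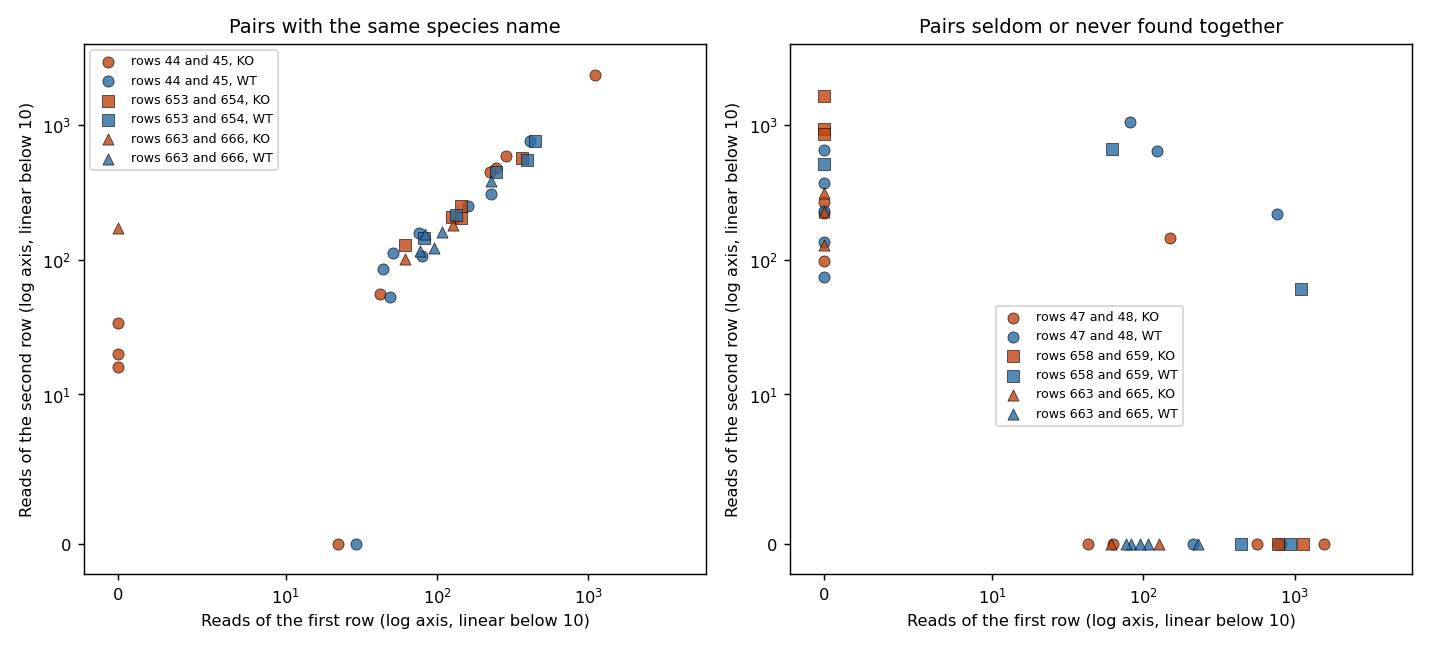
Reads of the first row (x axis) against reads of the second row (y axis) of 6 pairs of variants in each library with either (log axes, linear below 10; KO orange, WT blue). In the left panel most libraries hold both rows at 0.455 to 0.925 reads of the first per read of the second; in the right panel most libraries lie on an axis, with 4 holding both rows 47 and 48, 2 holding both rows 658 and 659 and 0 holding both rows 663 and 665.

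In KO 5 of the 9 member variants tested were called from weaning to co-housing, 1 higher and 4 lower, where 27.1% of all variants were called (79 of 292; 66 higher and 13 lower) and the median log2 fold change over all variants was 1.24. Beside rows 48, 44 and 45 these were row 132, the Tannerellaceae without a genus (log2 fold change -5.71 ± 2.21, adjusted p = 0.0485), and row 53, a Parabacteroides. Row 53 had 875 reads (4.14%) in library 1 and 0 in the other 9 KO libraries, so its call (adjusted p = 0.0485) rests on 1 library. Without library 1 the log2 fold change of row 132 was -2.52 (adjusted p = 0.455). Without any one of libraries 2 to 5 and 12 to 15 it stayed at -5.40 to -6.03 and just missed the threshold (adjusted p = 0.0550 to 0.0818). In WT 0.685% of variants were called over this step (2 of 292) and 0 of 9 members. At an unadjusted p under 0.05 there were 4 members and 96 of 292 variants in all. DESeq2 called 3 members in WT and 35 of 292 variants in all. Row 49 stood at 2.90% ± 3.18 at weaning, with 8.43% in library 9, and at 0.260% ± 0.192 after co-housing in WT (log2 fold change -3.85 ± 1.41, adjusted p = 0.0671).

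Library 1 had a makeup of its own among the KO weaning libraries. Its 16.5% of Bacteroides consisted of rows 44 and 45 alone, with 0 reads of rows 47, 48, 49 and 50. Its Parabacteroides consisted of row 53 (4.14%) and row 52 (0.0237%), with 0 reads of row 133, which was the Parabacteroides of libraries 2 to 5 at 0.305% to 0.911%. Together the 2 families held 25.0% of its reads and 2.33% to 10.1% in the other 4. Row 53 was also found in WT libraries 6 (0.387%) and 8 (0.741%) and in 0 co-housed libraries.

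Row 133 was the most widespread Tannerellaceae variant, found in 17 of 20 libraries. It held 0.488% ± 0.358 and then 0.0841% ± 0.0577 in KO, and 0.442% ± 0.635 and then 0.295% ± 0.276 in WT, with 0 of its comparisons called. The 4 member variants under the filter (rows 43, 46, 52 and 131) each reached at most 0.0890% in any library. Row 43, named Bacteroides vulgatus, was found in libraries 2, 4 and 11, all KO, and row 46 in libraries 8, 9, 10 and 18, all WT, with 38 and 60 reads in all. They were not tested.

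Of the 13 variants, 8 were found in both genotypes at weaning, 2 in KO alone and 3 in WT alone. After co-housing 7 were found in both, 3 in KO alone, 1 in WT alone and 2 in neither. The same counts were not taken over all variants, so they do not set the members apart from the rest. Some rest on few reads, since at weaning rows 52 and 43 had 5 and 20 reads in KO and row 131 had 10 in WT. The number of member variants per library was 6.6 ± 1.52, 4.8 ± 1.64 and 10.8 ± 0.837 in KO and 7.6 ± 2.07, 4.8 ± 1.30 and 10.2 ± 1.10 in WT at the 3 times in turn (SD, n = 5). At an equal depth of 10491 reads the expected numbers were 6.58, 4.75 and 10.6 in KO and 7.54, 4.79 and 9.79 in WT.

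The makeup of Bacteroides was compared as Bray-Curtis distances between libraries over its variants, where 0 is the same makeup and 1 shares no variant. At weaning the mean distance was 0.369 within KO, 0.434 within WT and 0.581 between the genotypes. After co-housing it was 0.522, 0.570 and 0.516, and after re-separation 0.479, 0.468 and 0.464. Between-genotype distances thus stood above those within a genotype at weaning, and not above them at the later times. Pairs of libraries share their members, so these means are given without a test.

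After re-separation 15 member variants had reads, 12 of them in both genotypes and 3 in KO alone (rows 651, 661 and 665). This count was not taken over all variants either. Between the genotypes 1.44% of variants were called (4 of 278) and 0 of the 13 members tested. At an unadjusted p under 0.05 there were 2 members and 29 of 278 variants in all. The 2 members were rows 662 and 665. Both passed the filter on low counts only through KO libraries, so a difference was fixed in advance. DESeq2 called 1 member and 16 of 278 variants in all. The 5 with the highest mean share were rows 658 (0.869%), 659 (0.739%), 654 (0.660%), 660 (0.551%) and 800 (0.506%).

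Row 659, named Bacteroides acidifaciens, and row 658, Bacteroides without a species name, took each other's place between libraries. Row 659 held 1.49%, 0%, 0%, 2.61% and 1.39% in KO libraries 21 to 25 and 0.910%, 0%, 0.108%, 0.888% and 0% in WT libraries 26 to 30. Row 658 held 0%, 2.13%, 1.37%, 0% and 0% in the KO libraries and 0.0843%, 2.03%, 1.96%, 0% and 1.12% in the WT libraries. Every library held at least one, 4 held row 658 alone, 4 held row 659 alone, and 2 (libraries 26 and 28) held both. Neither row was called between the genotypes (log2 fold change in KO against WT of 1.77 ± 2.03 for row 659 and -0.74 ± 2.07 for row 658, adjusted p = 0.732 and 0.869). With standard errors of this size the tests could not exclude a large difference. Their sum was 1.80% ± 0.551 in KO and 1.42% ± 0.581 in WT, from 0.888% to 2.61%.

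Row 660, Bacteroides without a species name, was found in 10 of 10 libraries at 0.706% ± 0.376 in KO and 0.395% ± 0.266 in WT (adjusted p = 0.653). Row 654, named Bacteroides sartorii, stood at 0.474% ± 0.346 and 0.846% ± 0.533 (adjusted p = 0.650). Row 800, Parabacteroides without a species name, stood at 0.409% ± 0.159 and 0.603% ± 0.446 (adjusted p = 0.732).

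Several patterns among the less abundant variants were chosen after their values were seen. Of the Parabacteroides distasonis variants, row 665 held 0.496%, 0.424% and 0.228% in KO libraries 21, 22 and 23 and had 0 reads in the other 7, and row 663 was found in exactly those 7 at 0.0959% to 0.497%. The 2 variants thus never shared a library. Row 663 came with row 666 in 7 of 7 libraries, with 0.532 to 0.772 reads of row 663 per read of row 666, and row 666 was also found in library 21. Row 665 passed the filter on low counts only through these KO libraries, so a difference between the genotypes was fixed in advance. Its values are therefore descriptions. Against the WT floor row 665 was at least 40.1-fold higher in KO, or at least 28.5-fold without library 21 (edgeR adjusted p = 0.149). Row 662, Bacteroides without a species name, held 0.0547% to 0.149% in 5 of 5 KO libraries and 0.0408% in WT library 26, with 0 reads in the other 4 WT libraries (log2 fold change 3.64 ± 1.56, adjusted p = 0.379). Its groups did not overlap, and it was not called. Row 662 also passed the filter only through KO libraries, so this is a description as well.

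Across the 20 weaning and co-housing libraries, the genera whose shares ran most like those of Bacteroides among 71 others were Parasutterella, an asaccharolytic proteobacterium (Spearman rho 0.883), Tannerellaceae without a genus (0.860) and unnamed Muribaculaceae (0.853). In the 10 re-separation libraries the same 3 had rho of 0.745, 0.358 and 0.648. Parabacteroides ran most like Tannerellaceae without a genus (0.684), Candidatus Arthromitus, a segmented filamentous bacterium (0.621), and Bacteroides (0.603), with 0.406, -0.164 and 0.552 in the re-separation libraries. Tannerellaceae without a genus ran most like Bacteroides (0.860), Parasutterella (0.806) and Muribaculum (0.789), with 0.358, 0.212 and 0.624 in the re-separation libraries. Tannerellaceae without a genus had reads in 10 of the 20 libraries. In the others its value was set by the pseudocount and the mean of the library. All values come from the same libraries, whose shares sum to one total, and the step from weaning to co-housing enters all 20 points, so they are descriptions.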

How the data were processed

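The authors deposited raw read counts, 1 per variant and library, with taxon names (per the file headers). Per the labels' protocols, stool DNA was isolated by column kit, V4 was amplified by PCR, and the products were sequenced as pairs on a MiSeq. R 4.5.1 and limma are listed in the submitters' processing notes, with no stated use. Denoising settings, taxonomic reference and filters: not given in the sources used here. All 30 columns were used and 0 were left out. The members and lists were chosen with earlier results of these data known.

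The table held 3697 rows, 953 with reads, and mitochondrial rows were left out of totals. Genera were summed by the lowest name given (98 genera, 80 in both library sets). Tests on counts used edgeR 4.0.16 in R 4.3.3 (robust quasi-likelihood fit, TMMwsp scaling, 1 coefficient per group), with Benjamini-Hochberg adjustment over all features with at least 10 reads in at least 3 libraries (72 genera over all 30 libraries; 292 and 278 variants by library set; 9 of 13 and 13 of 15 member variants). A member that passes this filter only through the group where it is high had to differ. Where a group was at 0, folds are bounds against 3 counts per library. Only 5 counts in the table equal 1 and the lowest member count above 0 is 4, so low counts may have been removed earlier and the bounds may be too high. Shares of single libraries were compared with exact permutation tests over all orderings of 5 against 5 (smallest p 0.00794), adjusted over 9 comparisons. PCR reads are not independent molecules, so floors cover counting error only. In 60 within-group pairs of libraries, counts differed far beyond sampling noise (chi-square over its degrees of freedom, 28.5 to 249). The fits were also run on simulated counts with known changes. The outcome is not given here and no support is drawn from it. Other steps ran in Python 3.11.15 (scipy 1.17.1, numpy 2.4.6, pandas 2.3.3; figures in matplotlib 3.10.9).

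Named were the 3 member groups, member variants called in any comparison, and the 5 of highest mean share in each set. For likeness the 3 genera of highest Spearman correlation of centred log-ratios per group were named. Alternatives were library-size and median-of-ratios scaling, no filter, DESeq2 1.42.0, limma-voom (limma 3.58.1), the compared groups alone, libraries 1, 5, 11 and 19 left out, each library left out in turn, a centred log-ratio (pseudocount 0.5), and variant numbers at equal depth.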

Additional observations from a re-analysis of the deposited data

Results flagged for a closer look

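In 18 of 53 groups of 5 libraries tested, over the 3 member groups and 12 named variants, the highest library stood apart from the other 4 by Dixon's criterion. The criterion's rate of about 1 in 20 by chance holds for normally distributed values, and these are skewed shares with zeros. In 4 of the 18 the other 4 libraries were all at 0, which fixes the result. The groups are not independent, since variants are parts of their genus. Library 1 stood apart within the KO weaning group for Parabacteroides (4.16%), Tannerellaceae without a genus and its single variant row 132 (4.40% for both), and rows 53 (4.14%), 44 (5.26%) and 45 (11.2%).

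Library 19 stood apart within the WT co-housed group for Bacteroides (6.81%), Tannerellaceae without a genus and row 132 (0.0393% for both), and rows 47 (3.80%), 44 (1.11%) and 45 (1.52%). In the WT weaning group library 9 stood apart for Bacteroides (15.0%) and row 49 (8.43%), and library 10 for row 47 (2.02%). In the KO co-housed group library 11 stood apart for Bacteroides (2.97%) and library 13 for row 44 (0.0535%, 22 reads, the other 4 libraries at 0). After re-separation library 22 stood apart for row 654 in KO (1.08%).

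The step from weaning to co-housing differed between the genotypes for row 48, Bacteroides acidifaciens, with an interaction of 13.52 on the log2 scale (edgeR adjusted p = 0.00126) that rests on 0 reads in the KO weaning libraries. How many cages these libraries come from is not labelled, and a cage effect was not tested.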

How the results depend on the processing

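Of 853 recomputed values of 58 single results, 764 kept their direction and side of the threshold, 40 lost their call, 9 gained one and 40 changed sign. Row 48 kept its calls at weaning, from weaning to co-housing in KO and as an interaction in every setting run. In the fits of the compared groups alone it passed the filter only through the group where it was high, so those calls were fixed in advance. Replicate numbers are unique to each library. No paired analysis was possible because the groups share no replicate number. The setting with the compared groups alone equals the reported one for the variant interaction and the re-separation variants and has no separate value.

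Counts of called members among genera at weaning (1) were 0 with DESeq2 (which gave Tannerellaceae without a genus no adjusted p), with limma-voom and with libraries 1, 5, 11 and 19 left out, and 0 to 1 with each library left out in turn. From co-housing to re-separation in KO (2) they were 1 with library-size and with median-of-ratios scaling, and 1 to 2 with a library left out. In WT (0) they were 3 with the 4 libraries left out, 1 with the compared groups alone and 0 to 1 with a library left out (1 without library 19). From weaning to co-housing in WT (1) they were 3 with the 4 libraries left out and 0 to 3 with a library left out (0 without library 9, 3 without library 19). Calls over all genera moved too. At weaning DESeq2 called 22, limma-voom 15 and the fit without the 4 libraries 15, against 17. In the KO step to re-separation the 2 scalings called 8 and 11, against 14. In the WT step to re-separation 11 were called without the 4 libraries and 6 with the compared groups alone, against 1. In the WT step to co-housing 35 were called without the 4 libraries, against 21.

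Counts of called member variants from weaning to co-housing in KO (5) were 3 with limma-voom, 1 with the 4 libraries left out (row 48) and 2 to 5 with a library left out (2 without library 1). In WT (0) they were 2 without the filter, 3 with DESeq2, 3 with limma-voom, 1 with the 4 libraries left out and 2 with the compared groups alone. For the interaction (1) they were 2 with library-size scaling, 2 with DESeq2 and 1 to 2 with a library left out. Between genotypes after co-housing (0) they were 0 to 1 with a library left out, and after re-separation (0) 1 with DESeq2, 2 with limma-voom and 0 to 1 with a library left out. Calls over all variants moved too. In the KO step limma-voom called 36 and the fit without the 4 libraries 11, against 79. In the WT step 9 were called without the filter, 35 with DESeq2 and 57 with limma-voom, against 2. It had 22 without the 4 libraries and 32 with the compared groups alone. The interaction had 19 with library-size scaling and 31 with DESeq2, against 18. After re-separation DESeq2 called 16 and limma-voom 23, against 4. The cause was not tested.

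Values that changed sign were uncalled. For KO against WT, the log2 fold change of Bacteroides at weaning (-0.73) was 0.26 with library-size scaling and -1.001 to 0.11 with a library left out, and after co-housing (-1.18) -1.61 to 0.17. That of Parabacteroides was -0.38 at weaning with the 4 libraries left out (0.24 as reported) and -0.67 to 1.43 with a library left out, and -0.65 to 0.27 after re-separation (-0.26). That of Tannerellaceae without a genus after co-housing (0.17) was -0.73 to 4.79. The interaction of genotype with the step to co-housing was, for Bacteroides (-0.45), 0.28 with limma-voom, 0.41 with the 4 libraries left out and -1.29 to 0.90 with a library left out, and for Tannerellaceae without a genus (-3.86) 2.83 with the 4 libraries left out and -4.75 to 0.76. With the step to re-separation the latter (1.38) was -2.40 and -3.24 to 2.25.

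Differences in mean share (percentage points, KO minus WT) changed sign with a library left out for Bacteroides at weaning (-0.566 to 3.40), after co-housing (-1.53 to 0.0958) and after re-separation (-0.173 to 0.528), for Parabacteroides at weaning (-0.0662 to 1.05) and after re-separation (-0.525 to 0.00735), and for Tannerellaceae without a genus after co-housing (-0.00421 to 0.00998). As centred log-ratios they changed sign for Bacteroides at weaning (-0.267) and after co-housing (0.149) and Parabacteroides after re-separation (0.0219). Within Bacteroidales reads they did so for Bacteroides after co-housing (0.304 as centred log-ratio, 0.132 with the 4 libraries left out, -1.63 to 0.619) and after re-separation (-0.0441, and -0.404 to 1.10).

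Library-size scaling moved the median log2 fold change over all genera from 0 to 0.42 at weaning (17 higher and 10 lower calls, 6 and 11 as reported) and from 0.90 to 1.82 in the WT step to co-housing (27 and 6, against 15 and 6). Median-of-ratios scaling moved it from 0.74 to 0.40 in the KO step (8 and 9, against 14 and 9) and from 0.90 to 0.39 in the WT step (12 and 8). In the KO step to re-separation the splits were 5 and 3 with library size and 10 and 1 with median of ratios (11 and 3). The falls of Bacteroides in both genotypes and of all 3 groups in KO were called under all of these. Depth limits what 0 reads can show to about 3 counts in 10491 to 73588 bacterial reads.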
